A study of Mus musculus with 3 samples.

Results

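Gene expression was compared between mouse dendritic cells kept for 24 h with PTX and cells kept for 24 h with PBS, with 1 array for each. The probe sets taken were the noncontrol ones with exactly 1 gene symbol in the platform annotation, which were 34945 of the 45101 on the array and represented 18193 genes. Of these genes, 12299 were measured on at least 1 of the series' 3 arrays. Per the labels, bone marrow of female mice aged 6 weeks was cultured with GM-CSF at 20 ng/mL, and the nonadherent cells of day 7 received PBS as the control or PTX at 100 ng/mL. What the letters PTX stand for is not spelled out in the labels, so the label is used as it is. The strain label reads C57BL/6 for the PBS sample and C57BL/7 for the PTX sample. Both groups thus shared sex, age, growth factor and time, and whether they shared a mouse or a marrow preparation is a point not given in the sources used here. A further array of the series, from cells kept with LPS (lipopolysaccharide, a bacterial cell wall component) at 1 µg/mL, was set beside these only where stated.

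Dendritic cells take up material, sense microbial molecules through pattern receptors and present antigen on MHC molecules to T cells. Type I interferons are secreted by sensing cells and bind a receptor on the same and on neighbouring cells, whose kinases phosphorylate STAT factors. A complex of STAT proteins with IRF9 then binds interferon-stimulated response elements in the promoters of antiviral genes, and many of those genes lie in families of close copies. Cells in marrow cultures with GM-CSF also divide, and dividing cells express a common set of genes for DNA replication and mitosis.

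The value of a probe set is its intensity as deposited on a linear scale, called its reading here. Differences are log2(intensity + 16), PTX minus PBS, so that a difference of 1 is 2-fold on that scale, and adding 16 makes the differences of dim readings smaller. A gene was read by its brightest probe set, and it counted as measured where that probe set reached an intensity of 78.9, the median of all noncontrol values, on at least 1 array. With 1 array in each group there was no replicate, so no spread and no test exists, and the words higher and lower compare these arrays only. How few arrays there are is what limits precision here.

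The technical readings of both arrays were close. Their median intensities were 85.7 for PBS and 86.9 for PTX, and the log2 values of all probe sets correlated with Pearson's r = 0.974, a correlation across probe sets, which are no replicates. The 18 hybridization controls differed by 0.12 at most, with a median of 0.012, and the 27 poly-A controls by 0.32 at most, with a median of -0.067. The ratio of 3′ to 5′ signal of beta-actin was 1.33 and 1.40, and that of Gapdh was 1.02 and 1.12.

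Most genes read alike in both groups. Of the 12299 measured genes, 11633 (94.6%) lay within 2-fold, and the middle 90% of the differences, from the 5th to the 95th percentile, ran from -0.67 to 0.74 around a median of 0.0054. At least 2-fold higher with PTX were 374 genes (3.04%), and at least 2-fold lower were 292 (2.37%). At 4-fold these counts were 92 and 62, and at 8-fold they were 33 and 8. Counted by probe set, 614 of the 34945 (1.76%) passed 2-fold on the higher side and 502 (1.44%) on the lower side. Bright genes held more of the higher calls. Of 2431 genes with a mean reading of at least 1000, 161 were higher and 33 lower, whereas of 4165 genes with a mean reading from 100 to 300, 68 were higher and 109 lower. The reading on the other array was below the measured level for 60 of the 374 higher genes and 90 of the 292 lower genes.

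**Figure D1:**
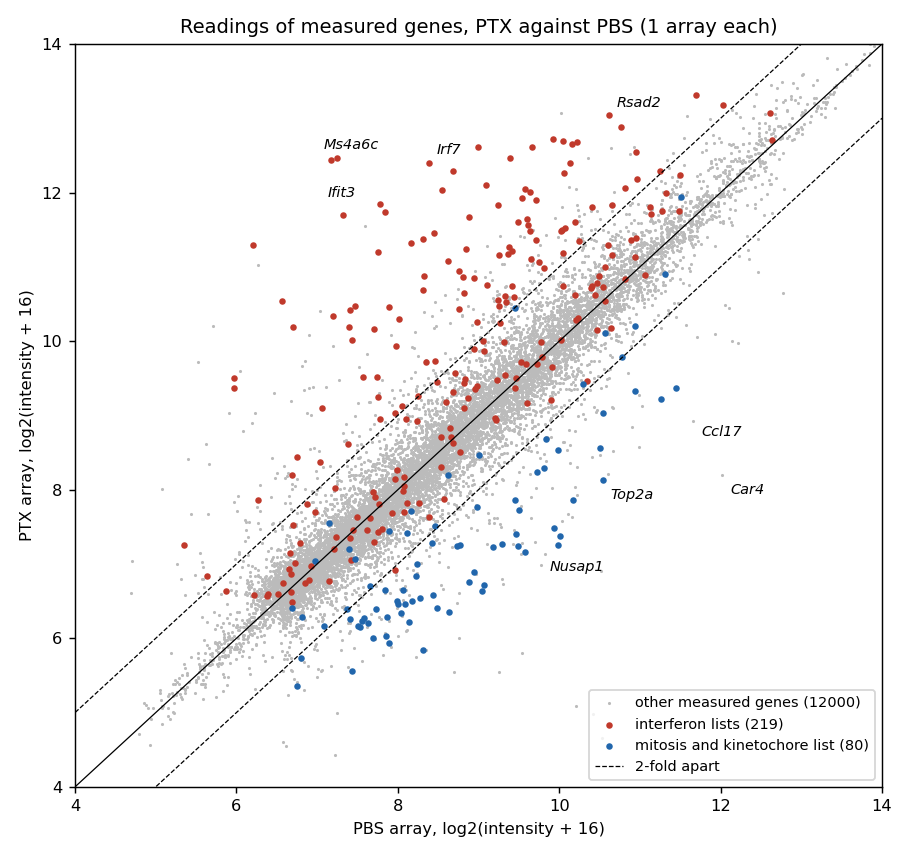
Readings of the 12299 measured genes on the PBS array (horizontal) and on the PTX array (vertical), both as log2(intensity + 16), with 1 point per gene. The 219 genes of the interferon lists (red) lie mostly above the diagonal, the 80 genes of the mitosis and kinetochore list (blue) mostly below it, and the dashed lines mark 2-fold.

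Of the measured genes, 1461 stood in 82 lists by role, from interferon families to markers of other cells a marrow culture can hold. Over the interferon lists together, 104 of 219 measured genes were at least 2-fold higher and 1 was lower, with a median difference of 0.86. Over the cell cycle lists, 83 of 184 were at least 2-fold lower and 1 was higher, with a median of -0.89. These shares stand beside 3.04% and 2.37% of all measured genes and a median of 0.0054. No other theme held as large a share. In metabolism 10 of 212 genes were higher and 15 lower, in antigen presentation 11 of 84 were higher and 3 lower, and in uptake receptors 10 of 70 were higher and 5 lower. Some genes stand in several lists, and the MS4A family is counted among the interferon lists. The lists were chosen with earlier results of these data known, so these shares are a description and no independent support.

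The lists are given from the interferon ligand to its targets. In each list, readings are given as PTX against PBS, with the log2 difference in brackets. Among interferon ligand genes the only measured one was Ifnb1, which encodes interferon beta. It read 98.0 against 33.7 (1.20), so the PBS reading lay below the measured level. The genes for the receptor chains and their kinases were close to the PBS level. None of 10 was 2-fold apart, 8 lay above 0, and their median was 0.32. Ifnar1, a chain of the type I receptor, read 810.1 against 751 (0.11), its partner Ifnar2 read 2485 against 1547 (0.68), and the kinase gene Tyk2 read 646 against 685 (-0.081).

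Of 6 measured STAT genes, 2 were at least 2-fold higher. Stat2, a subunit of that complex, read 157 on the PBS array and 1016 on the PTX array, a difference of 2.58, and its other measured probe set differed by 2.38. Stat4 was just past 2-fold at 597 against 289 (1.01), while Stat3 (0.70, with 1 of its 4 measured probe sets at 1.06), Stat5b (0.42), Stat6 (0.19) and Stat5a (-0.44) were within it. Of 11 interferon regulatory factor genes, 3 were higher. Irf7, which amplifies interferon transcription, had the largest difference of the family, at 5399 against 317 (4.02). Irf1 read 2189 against 786 (1.46) and Irf8, a factor of dendritic cell and monocyte development, read 2005 against 886 (1.16). Irf9, the DNA-binding subunit that joins the STAT proteins, fell short of 2-fold at 939 against 478 (0.95), and Irf3 (-0.26) and Irf5 (-0.040), which act downstream of pattern receptors, lay below 0. Genes that restrain interferon signalling were mostly within 2-fold. Of 17 genes, 2 were higher: Usp18, which blocks the receptor and removes an interferon-induced ubiquitin-like protein from others, at 3891 against 729 (2.39), and Socs3, an inhibitor of JAK kinases, at 1537 against 627 (1.27). The related inhibitor Socs1 read 78.7 against 67.3 (0.18).

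The families of direct antiviral effectors were among the lists with the largest shares of higher genes. In the IFIT family with Rsad2 and Cmpk2, 6 of 7 genes were at least 2-fold higher, with a median of 2.58. IFIT proteins bind viral RNA ends and limit its translation. Ifit3 read 3648 against 203 (4.07), Ifit2 read 6246 against 494 (3.62) and Ifit1 read 3618 against 590.0 (2.58). Rsad2, which encodes the antiviral enzyme viperin, read 8461 against 1549 (2.44) and all 3 of its measured probe sets were higher by at least 2.44. Ifit1bl2 (0.49) was the member within 2-fold, although its other measured probe set differed by 2.69. In the OAS and Mx list 8 of 9 were higher, with a median of 1.94. OAS enzymes sense double-stranded RNA and activate RNase L, and Mx proteins are antiviral GTPases. Oasl1 read 1282 against 131 (3.14), Oas1a read 5379.7 against 1104 (2.27) and Mx1 read 2129.9 against 847 (1.31). The sequences of 3 of these promoters are shown because they carry the interferon-stimulated response element close to the start of the gene. Each is the 250 bases before the transcription start, from RefSeq on GRCm38.p6, written 5′ to 3′ on the strand of the gene, with every match to TTTCNNTTTC or its reverse complement in capitals. Ifit3 lies on the plus strand at chr19:34583279-34583528, Ifit1 on the plus strand at chr19:34640639-34640888, and Oas1a on the minus strand at chr5:120907526-120907775.
Ifit3: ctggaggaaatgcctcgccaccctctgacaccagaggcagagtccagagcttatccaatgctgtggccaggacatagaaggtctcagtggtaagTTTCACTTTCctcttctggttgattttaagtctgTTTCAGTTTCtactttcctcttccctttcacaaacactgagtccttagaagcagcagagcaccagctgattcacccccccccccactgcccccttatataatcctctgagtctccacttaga
Ifit1: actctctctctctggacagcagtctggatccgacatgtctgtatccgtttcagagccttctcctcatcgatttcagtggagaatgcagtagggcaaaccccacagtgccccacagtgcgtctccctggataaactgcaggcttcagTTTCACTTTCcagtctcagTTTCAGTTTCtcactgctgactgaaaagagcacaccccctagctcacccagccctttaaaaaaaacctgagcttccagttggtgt
Oas1a: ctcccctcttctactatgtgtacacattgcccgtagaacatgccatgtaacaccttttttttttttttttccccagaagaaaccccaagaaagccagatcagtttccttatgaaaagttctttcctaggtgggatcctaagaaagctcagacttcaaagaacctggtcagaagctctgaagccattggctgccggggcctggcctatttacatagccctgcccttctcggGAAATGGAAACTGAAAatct
The Ifit3 window holds 2 matches that begin 156 and 122 bases before the start, and the Ifit1 window holds 2 that begin 104 and 85 bases before it. In Oas1a the 2 matches overlap, at 20 and 14 bases before the start, and are read on the opposite strand. A match is a description of letters and no measured binding site.

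In the system that attaches this ubiquitin-like protein to others, 5 of 7 genes were higher, among them the activating enzyme gene Uba7 (1.96, with 1 of its 3 measured probe sets at 0.12), the ligase gene Herc6 (2.46) and the conjugating enzyme gene Ube2l6 (1.59). Of 20 nucleic acid sensors and their partners 10 were higher and none lower. Zbp1, a sensor of left-handed nucleic acid, read 2533 against 269.7 (3.16). The RNA helicase sensors Ifih1, Ddx58 and Dhx58 read 3101 against 705 (2.11), 2286 against 645 (1.80) and 1129.7 against 193 (2.45). The DNA-sensing pair Cgas (0.39) and Sting1 (0.79), their kinase Tbk1 (0.20) and the adaptor Mavs (0.28) stayed within 2-fold. Of the HIN-200 family of nuclear DNA-binding proteins, 4 of 6 were higher. Ifi213 read 2501 against 57.8 (5.09), with a PBS reading below the measured level, and Ifi209 read 6599 against 1042 (2.64), whereas the inflammasome sensor gene Aim2 read 179.7 against 185 (-0.042).

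Interferon-inducible GTPases, which attack vacuoles of intracellular pathogens, were higher as families. All 5 measured guanylate-binding protein genes were at least 2-fold higher, from Gbp7 (1.10) to Gbp6 (3.49). Of 8 immunity-related GTPase genes 6 were higher. Iigp1 read 648 against 46.7 (3.40), Ifi47 read 4894 against 1054 (2.20) and Irgm1 read 3013 against 769 (1.95). The remaining members, Irgc1 (-0.10) and Irgq (-0.33), lay below 0. Of the Schlafen family, regulators of cell growth and of translation, 5 of 8 were higher, led by Slfn5 at 2344 against 199.98 (3.45), Slfn4 at 5652 against 658 (3.07) and Slfn1 at 2802 against 332 (3.02). Slfn2 was within 2-fold at 0.68.

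Other interferon-inducible groups were mixed. Among ADP-ribosyltransferases and their partner, 5 of 11 were higher, namely Parp14 (1.85), Parp12 (1.79), Parp9 (1.65), Dtx3l (1.45) and Parp11 (1.26), while the DNA repair enzyme Parp1 read 403 against 388 (0.054). In the IFITM family, which blocks the entry of viruses into cells, Ifitm6 (1.41), Ifitm2 (1.25) and Ifitm3 (1.15) were higher and Ifitm1 read 6659 against 6342 (0.070). Of 33 TRIM ubiquitin ligase genes 7 were higher, led by Trim30d (2.05) and Trim34a (1.90), and 1 was lower, Trim59 (-1.05), the only gene of all interferon lists on that side. Of Ly6 antigens with Bst2 and Plac8, 4 of 6 were higher. Plac8 read 3302 against 144 (4.38), and Bst2, which tethers budding virus to the cell surface, read 4103 against 783 (2.37). In the list of other interferon-stimulated genes 31 of 48 were higher. Il18bp, the secreted inhibitor of interleukin 18, read 1149.7 against 153 (2.79), Rtp4 read 6433 against 1123 (2.50) and Helz2 read 2862 against 1029.8 (1.46). Against this, the interferon-inducible chemokine gene Cxcl10 read 688 against 1283 (-0.88), Cxcl9 read 83.2 against 42.5 (0.76), Cxcl11 read 237 against 252 (-0.084) and Tnfsf10, the gene of the death ligand TRAIL, read 273 against 254 (0.098).

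The MS4A genes, which encode membrane proteins with repeated transmembrane segments, included the largest differences of all genes measured on both arrays. Of 9 measured members 6 were higher and none lower. Ms4a6b read 5658 against 136 (5.22), and its other measured probe set differed by 4.57. Ms4a6c read 5545 against 129 (5.27), but its other measured probe set differed by only 0.61. Ms4a6d read 6243 against 794 (2.95) and Ms4a7 read 1872 against 304 (2.56). The members within 2-fold were Ms4a3 (0.36), Ms4a8a (0.29) and Ms4a15 (0.16). The families named here hold near-identical copies, and which copy a probe set reads cannot be told from these values.

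**Figure D2:**
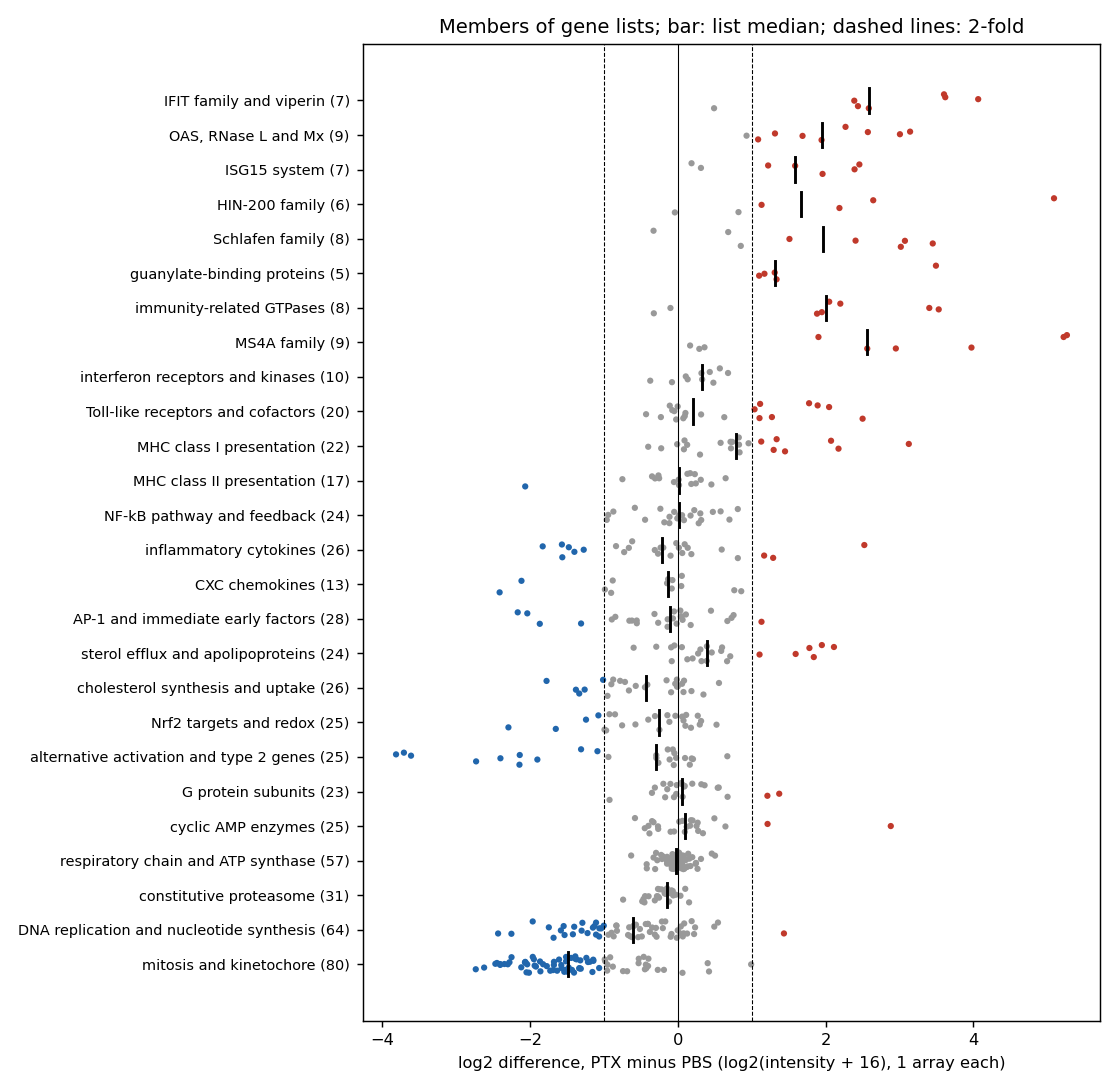
Log2 differences, PTX minus PBS, of the measured members of 26 lists, with 1 point per gene, the list median as a bar and the number of members in brackets. Points at least 2-fold higher are red and those at least 2-fold lower are blue. The interferon families lie to the right, mitosis and DNA replication to the left, and the respiratory chain and proteasome lists near 0.

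Genes of cell division were lower with PTX. In the mitosis and kinetochore list 58 of 80 genes were at least 2-fold lower and none was higher, with a median of -1.49, and 76 lay below 0. Nusap1, a spindle protein gene, read 136 against 998 (-2.74). Ube2c, the ubiquitin conjugase of the anaphase-promoting complex, read 151 against 1011 (-2.62), and Birc5, which encodes survivin, read 163 against 961 (-2.45). Mki67, the gene of the proliferation marker Ki-67, read 361 against 1441 (-1.95), the cyclin gene Ccna2 read 216 against 1131 (-2.30) and the topoisomerase gene Top2a read 264 against 1471 (-2.41). The members above 0 were Ncapg2 (0.99), Pttg1 (0.42), Mybl2 (0.40) and Cenpf (0.062), but another measured probe set of Cenpf was lower (61.9 against 297, -2.01) and the remaining probe set differed by -0.14. When a gene had to reach the measured level on both arrays, 34 were lower, but 28 of the 80 genes, below that level with PTX, then no longer counted. In a bulk culture, fewer dividing cells and less of these RNAs per cell cannot be told apart.

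DNA replication and nucleotide synthesis genes were lower to a smaller extent. Of 64 genes 21 were at least 2-fold lower and 1 was higher, with a median of -0.60. Among the lower ones were Mcm5, a subunit of the replicative helicase (332 against 1346, -1.97), and 4 of its partners, Mcm6 (-1.13), Mcm7 (-1.11), Mcm2 (-1.07) and Mcm3 (-1.06), with Mcm4 just inside 2-fold (-0.83). Rrm2, a subunit of ribonucleotide reductase, read 188 against 1086 (-2.43), although the smallest difference among its 3 measured probe sets was -0.70. Uhrf1, which keeps DNA methylation through replication, read 72.9 against 408 (-2.25). The higher member was Dck, a kinase of the nucleoside salvage pathway, at 3268 against 1198 (1.44). With a pseudocount of 64 in place of 16 the count of lower genes was 12.

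Regulators of entry into the cycle were mostly within 2-fold. Of 33 genes 3 were lower, namely the transcription factor gene Myc (42.8 against 226, -2.04), the cyclin gene Ccne2 (52.3 against 258, -2.002) and the kinase inhibitor gene Cdkn2c (171 against 567, -1.64). The D-type cyclin genes Ccnd1 (0.057), Ccnd2 (-0.11) and Ccnd3 (0.033), the kinase gene Cdk4 (-0.13) and the inhibitor gene Cdkn1a (-0.36) lay within 2-fold. The probe sets of Ccnd3 disagreed, since another one read 64.1 against 1477 (-4.22) and the remaining one differed by 0.37. Of the histone genes, H2ax (-1.61) was lower and the 6 others were within 2-fold.

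Some promoters of lower cell cycle genes are shown because they hold motifs known from this class of genes. A motif in the window was required for the choice, so its presence in them is no finding. The windows are again the 250 bases before the start from RefSeq on GRCm38.p6, 5′ to 3′ on the strand of the gene. Capitals mark CCAAT or its reverse complement ATTGG in all of them, TTTGAA or its reverse complement TTCAAA (the cell cycle genes homology region) in Ube2c and Top2a, and an E2F motif (TTTGGCGC or TTTCCCGC, either strand) in Mcm5. Ube2c lies on the plus strand at chr2:164769679-164769928, Top2a on the minus strand at chr11:99024190-99024439, and Mcm5 on the plus strand at chr8:75109259-75109508.
Ube2c: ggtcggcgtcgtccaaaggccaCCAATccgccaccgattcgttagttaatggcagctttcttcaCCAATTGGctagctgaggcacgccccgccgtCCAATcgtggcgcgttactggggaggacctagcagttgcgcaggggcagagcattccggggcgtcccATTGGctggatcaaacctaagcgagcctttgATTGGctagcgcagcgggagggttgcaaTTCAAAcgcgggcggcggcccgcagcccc
Top2a: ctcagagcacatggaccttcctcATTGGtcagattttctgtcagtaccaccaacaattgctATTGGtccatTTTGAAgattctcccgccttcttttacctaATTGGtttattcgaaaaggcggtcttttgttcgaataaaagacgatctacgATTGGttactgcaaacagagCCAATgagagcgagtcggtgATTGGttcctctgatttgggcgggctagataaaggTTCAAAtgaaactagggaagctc
Mcm5: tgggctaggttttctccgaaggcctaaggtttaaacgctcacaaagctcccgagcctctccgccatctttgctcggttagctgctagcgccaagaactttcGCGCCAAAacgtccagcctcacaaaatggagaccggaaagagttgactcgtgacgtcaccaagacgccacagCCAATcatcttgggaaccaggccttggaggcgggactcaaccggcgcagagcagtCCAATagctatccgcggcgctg
Ube2c and Top2a each hold 6 CCAAT matches in these 250 bases. In Ube2c the matches at 186 and 183 bases before the start overlap, as the strands of CCAATTGG. Each of these windows has a homology region match close to the start, beginning 29 bases before it in Ube2c and 23 bases before it in Top2a. The E2F match of Mcm5 begins 149 bases before the start, and its 2 CCAAT matches begin 77 and 22 bases before it.

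RefSeq promoters were matched by gene identifier to 9923 of the 12299 measured genes. Over all promoters, the motifs were counted on both strands in the same window of 250 bases. The response element TTTCNNTTTC stood in 2.98% of 32851 promoters and in 2.60% of 12697 promoters of measured genes. It stood in 47 of 391 promoters of genes at least 2-fold higher, in 24.4% of those at least 4-fold higher (20 of 82), and in 2.11% of those of lower genes (6 of 285). Of promoters of higher genes in the interferon lists it stood in 28.7% (29 of 101), and of higher genes outside those lists in 6.21% (18 of 290). Those interferon genes with a match included Ifi213, Stat2, Rsad2, Bst2, Irgm1 and Gbp2. Those without a match in the window included Irf7, Ifit2, Oasl1, Plac8, Ms4a6b and Ms4a6c. Matches of the gamma-activated sequence TTCNNNGAA may overlap those of the response element. This sequence stood in 7.02% of all promoters, 5.73% of those of measured genes and 14.9% of higher genes' promoters in the interferon lists.

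For the lower genes, CCAAT stood in 33.8% of all promoters and in 34.5% of those of measured genes. It stood in 65.5% of promoters of lower mitosis genes (36 of 55) and in 16 of 25 promoters of lower replication genes. Other lists, taken without regard to direction, held it too. It stood in 73.3% of cholesterol synthesis and uptake promoters (22 of 30), 48.3% of Nrf2 and redox promoters and 45.7% of heat shock promoters. The homology region stood in 5252 of the 32851 promoters, in 10.9% of those of measured genes, in 32.7% of the lower mitosis promoters (18 of 55), in 23.8% of the higher interferon promoters (24 of 101) and in 2 of the 25 lower replication promoters. The E2F motifs stood in 1.30% of all promoters, 2.35% of those of measured genes, 3.64% of lower mitosis promoters (2 of 55) and 20.0% of lower replication promoters (5 of 25). The kappa B motif GGGNNTTTCC stood in 1.79% of higher and 2.46% of lower genes' promoters, against 1.41% of all and 1.51% of measured genes' promoters. The cyclic AMP response element TGACGTCA stood in 0.767% of higher and 1.75% of lower genes' promoters, against 1.55% of all and 2.45% of measured genes' promoters. Genes with several starts count once per start, and these shares carry no test.

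**Figure D3:**
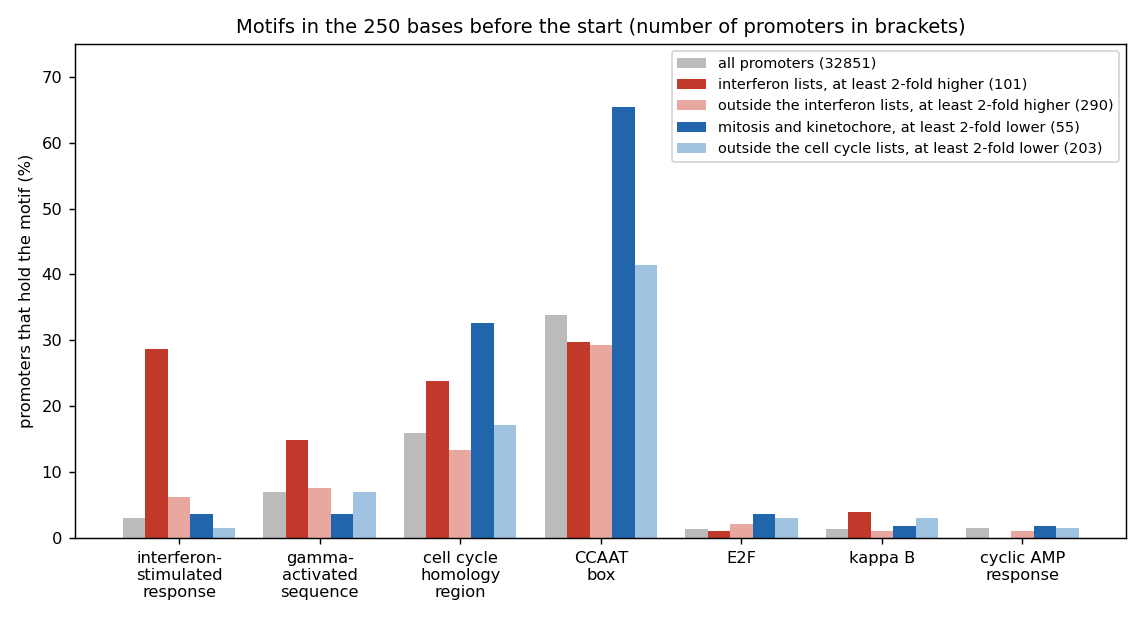
Share of promoters, in percent, that hold each motif in the 250 bases before the start, for all promoters (grey) and for promoters of higher (red) and lower (blue) genes in and outside the lists, with the number of promoters in brackets. The interferon-stimulated response element stands in 28.7% of the promoters of higher interferon genes against 2.98% of all, and CCAAT in 65.5% of those of lower mitosis genes against 33.8% of all.

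Inflammatory cytokine genes were mixed. Of 26 measured genes 3 were higher and 6 lower. Il12b, a subunit of interleukin 12 and interleukin 23, read 569.8 against 85.9 (2.52), Il18 read 588 against 231 (1.29), and Il15, which sustains NK and memory T cells, read 478 against 204 (1.17). The lower genes were Il1f9 (139 against 535, -1.83), Inhba, the activin A subunit (532 against 1612, -1.57), Il6 (181 against 568, -1.57), Ltb (62.3 against 202, -1.48), Il1a (427 against 1155, -1.40) and Tnf (113 against 296, -1.28). Il1b read 1844 against 1770.3 (0.059) and the anti-inflammatory Il10 read 53.3 against 49.0 (0.091).

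Of the chemokines, Ccl5, which attracts T cells, was the higher member of 17 CC chemokine genes at 10175 against 3295 (1.62). Ccl17 and Ccl24, which act on cells of type 2 responses, were the lower members, at 470.5 against 3217 (-2.73) and 102 against 236 (-1.09). Ccl22, which shares the receptor of Ccl17, read 1658 against 1740.3 (-0.069). Of 13 CXC chemokine genes none was higher, and the neutrophil attractants Cxcl1 (366 against 2019, -2.41) and Cxcl2 (1594 against 6975, -2.12) were lower. All 3 measured probe sets of Cxcl1 were lower by at least 2.11. Among chemokine receptors Cxcr4 (1.35) and Ccrl2 (1.09) were higher, and Ccr7, which guides dendritic cells to lymph nodes, read 3622 against 2163 (0.74).

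Set beside the LPS array, some of these genes lay on opposite sides of PBS. Cxcl1 read 7223 with LPS, Cxcl2 10398, Il6 2974, Il1a 4288 and Ptgs2, the inducible prostaglandin synthase gene, 889, all above their PBS readings, whereas Il12b read 535 with LPS and 569.8 with PTX. Genes of the interferon and mitosis lists also lay on the same side of PBS with LPS as with PTX. With LPS, Irf7 read 6370, Ifit3 2583 and Ms4a6b 3862, above their PBS readings. Nusap1 read 141 and Ccna2 125 with LPS, below their PBS readings. Ifitm6, which was higher with PTX, went the other way at 224 with LPS. How many genes of these lists shared a side was not counted. The LPS array had a lower median intensity (65.3), both comparisons share the PBS array, and the difference between the stimuli was not tested.

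Immediate early genes, which respond to receptor signals before new protein is made, included several lower members. Of 28 genes 4 were lower: Egr1 (245 against 1160.1, -2.17), Myc, Fosb (35.6 against 173, -1.87) and Klf4 (539 against 1360.3, -1.31). Nfil3, a factor of dendritic cell and lymphoid development, was higher at 1440.2 against 649 (1.13). Fos fell short of 2-fold at -0.85, and Jun (-0.018) and Junb (0.11) were near 0. None of 24 genes of the NF-kB pathway was 2-fold apart. Their median was 0.015, with a sign that differed between scalings. The feedback genes Nfkbia (-0.18), Tnfaip3 (-0.87) and Nfkbiz (-0.94) lay below 0. Of the dual-specificity phosphatase genes, which switch off MAP kinases, Dusp1 was lower (2243 against 4764, -1.08).

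Sensing and uptake receptors were higher in part. Of 20 Toll-like receptors and cofactors 8 were higher and none lower. The endosomal receptors for RNA were among them, with Tlr3 at 533 against 117 (2.05), Tlr7 at 958 against 434 (1.11) with its other probe sets at 0.36, Tlr8 at 289 against 110.2 (1.27) and Tlr13 at 1598 against 735 (1.10), as was Unc93b1, which carries such receptors to endosomes, at 2577 against 1247 (1.04). The others were the surface receptor gene Tlr1 (632 against 98.6, 2.50) and the pair Cd180 (1355 against 354, 1.89) and Ly86 (3563 against 1029, 1.78), whose products form a surface complex on B cells and dendritic cells. Tlr9, the endosomal receptor for DNA, read 96.3 against 105 (-0.11), and Tlr2, Tlr4 and Tlr5, also at the cell surface, differed by -0.43, 0.092 and -0.004. Of 7 Fc receptor genes, the high-affinity receptor gene Fcgr1 (3247 against 457, 2.79) and Fcgr4 (3404 against 214, 3.90) were higher, and the inhibitory Fcgr2b stood at the threshold. Its chosen probe set read 8594 against 4646 (0.89), and the other measured ones differed by 0.99, 1.12 and 1.17. Of 18 complement genes 3 were higher, namely Cfb, factor B of the alternative pathway (2981 against 177, 3.96), the protease gene C1ra (1291 against 427, 1.56) and the receptor gene C3ar1 (4113 against 1621, 1.34). Of 19 C-type lectin genes, Clec4a3 (1.72) and Clec2d (1.16) were higher, and Mgl2 (-2.14), Asgr2 (-1.98), Clec4b1 (-1.37) and Clec4e (-1.09) were lower. Clec7a, the receptor for fungal beta-glucan, read 8990.5 against 6590.3 (0.45).

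Presentation genes of MHC class I were higher in part, and those of class II mostly stayed within 2-fold. Of 22 class I genes 7 were higher and 19 lay above 0, with a median of 0.78. Nlrc5, the transactivator of class I genes, read 1069 against 224 (2.17), the peptide transporter gene Tap1 read 1463 against 335 (2.07) and the immunoproteasome gene Psmb9 read 1622 against 584 (1.45). The classical heavy chain genes H2-K1 (11166 against 6287, 0.83, with 1 of its 4 measured probe sets at 1.41) and H2-D1 (11519.6 against 6909, 0.74) were within 2-fold, as was B2m (12278 against 8221, 0.58). Of 17 class II genes none was higher, and H2-Ob, a modulator of peptide loading with a PBS reading of 82.1, was lower (-2.07). H2-Ab1 read 6479.8 against 5527 (0.23) and the transactivator gene Ciita read 142 against 141 (0.015). Of 25 costimulation genes, Tnfsf14 (1.59), Il15ra (1.23, with its other probe set at 0.17) and Cd83 (1507 against 647, 1.20) were higher, while Cd86 (0.72), Cd40 (0.66) and Cd80 (0.079) were within 2-fold.

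Genes of type 2 responses and alternative activation were lower in part. Of 25 genes 10 were lower and none higher. Car4, a carbonic anhydrase, had the largest negative difference of all genes measured on both arrays, at 278 against 4122 (-3.82), and its other probe set differed by -4.06. Mgl2, a lectin of a type 2 dendritic cell subset, read 1011 against 4517 (-2.14), Retnla, a secreted product of interleukin 4 signalling, read 351 against 1607 (-2.15), and F13a1, the coagulation factor XIII subunit, read 141 against 813 (-2.40). Other known members were near 0. Arg1 read 7593 against 6791 (0.16), Chil3 read 12932 against 13152 (-0.024) and Mrc1 read 472 against 441 (0.096). Plet1 read 30.7 against 595 (-3.71), but 1 of its other probe sets differed by 0.058.

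The same list holds ribonuclease genes of eosinophils, so the markers of that lineage are given beside it. Of 9 measured mast cell, basophil and eosinophil markers 4 were lower, namely Ear3 (103 against 1446, -3.61), Rnase2a (542 against 2069.7, -1.90), Siglecf (63.1 against 250.2, -1.75) and Prg2 (31.4 against 117, -1.49). Ear3 rests on 1 measured probe set, of a kind that can match several transcripts, so which ribonuclease copy it reads cannot be told. The summed reading of the 9 markers was 4504 with PBS and 1425 with PTX. The other 5, such as Cpa3 (-0.32) and Kit (0.62), were within 2-fold, and 11 more, among them the eosinophil genes Epx, Prg3 and Il5ra and the high-affinity IgE receptor gene Fcer1a, were not measured on any array. The part of such cells in the lower type 2 genes was not tested.

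Markers of dendritic cells and of other cells were mostly within 2-fold. Of 16 measured dendritic cell markers, Flt3 (253 against 62.1, 1.78) and Irf8 were higher and Cd24a (987 against 4744, -2.25) was lower. Itgax, which encodes CD11c, read 1294 against 2383 (-0.87), Zbtb46 read 173 against 236 (-0.41), and Cd209a and Xcr1 were not measured. Of 15 macrophage and monocyte markers 3 were higher, Fcgr1, Mertk (1841 against 524, 1.78) and Maf (2064 against 762, 1.42), and 14 lay above 0. Their summed reading was 50290.0 with PBS and 69876 with PTX, and Fcgr1 also counts as an interferon-stimulated gene. Of 10 neutrophil markers Csf3r was higher (1329 against 303, 2.07) and S100a9 lower (1083 against 3877, -1.82), and the summed reading was 18636 with PBS and 14556 with PTX. None of 5 measured T cell markers, 2 NK cell markers and 8 stromal and endothelial markers was 2-fold apart. Of 6 B cell markers Vpreb3 was lower (181 against 788, -2.03), with Cd79a, Cd79b and Pax5 not measured. Of 9 plasmacytoid dendritic cell markers the higher ones, Irf7 and Bst2, are interferon-stimulated genes too, and Siglech was not measured. The part of macrophages or monocytes in the higher receptor and lipid genes was not tested.

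Of the lipid genes, some of synthesis were lower and some of transport were higher. Of 26 cholesterol synthesis and uptake genes 5 were lower and none higher, with a median of -0.43. They were Fdps (311 against 1107, -1.78), Hsd17b7 (88.6 against 256, -1.38), Sqle (339.6 against 882, -1.34), Cyp51 (286 against 709.6, -1.26) and Idi1 (536 against 1099, -1.01), all enzymes of the pathway. Hmgcs1, an early enzyme of the pathway (-0.66), and the regulator gene Srebf2 (-0.78) were within 2-fold. In fatty acid synthesis Scd2 (-1.24), Elovl6 (-1.15) and Fasn, the fatty acid synthase gene (491 against 1030.4, -1.04), were lower. Of 24 efflux and apolipoprotein genes 6 were higher and none lower. Apoe, an apolipoprotein secreted by macrophages, read 5647 against 1294 (2.11), the lipid transfer protein gene Pltp read 4282 against 1097 (1.95), Apoc2 read 4209 against 1165 (1.84), and Cyp27a1, which makes an oxysterol, read 722 against 199 (1.78). The cholesterol exporter gene Abca1 read 5520.0 against 2558 (1.10), yet 1 of its 3 measured probe sets differed by -1.92 (94.3 against 400.2). Of 35 lysosomal genes only Sgsh was past 2-fold (1.23, with its other probe set at -0.17), but 31 lay above 0, with a median of 0.32.

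Stress genes were lower in a few members. Of 25 Nrf2 targets and redox genes 4 were lower: Nqo1, a quinone reductase (228 against 1180.0, -2.29), Gclm (1049 against 3336, -1.65) and Gclc (300.1 against 733, -1.24), the subunits of the enzyme that starts glutathione synthesis, and the heme oxygenase gene Hmox1 (1142 against 2427, -1.08). The gene of the factor itself, Nfe2l2, read 4049 against 3582 (0.18), with its other measured probe set at -1.12. Of 44 heat shock and cochaperone genes 3 were lower, the inducible chaperone genes Hspa1a (30.6 against 399, -3.15) and Hspa1b (175 against 1032, -2.46) and the glucocorticoid-responsive Fkbp5 (144 against 339.8, -1.15, with its other probe set at -0.33). The constitutive Hspa8 read 7543 against 7079 (0.091). None of 25 genes of the unfolded protein response was 2-fold apart. In eicosanoid synthesis Ptgs2 (37.5 against 282, -2.48, with its other probe set at -0.32) and the lipoxygenase gene Alox5 (383 against 1042, -1.41) were lower and Hpgds, a prostaglandin D synthase gene, was higher (176 against 52.6, 1.49). Of acute phase and S100 genes Saa3 (8577 against 1028, 3.04), Hp (5855 against 1869, 1.64) and Lcn2 (2779 against 1217, 1.18) were higher, while S100a9 and Ptx3 (337 against 1437, -2.04) were lower.

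Genes of G protein and cyclic AMP signalling, in which heterotrimeric G proteins pass signals from surface receptors to adenylyl cyclases, were mostly within 2-fold. Of 23 subunit genes, the gamma subunit genes Gngt2 (1569 against 597, 1.37) and Gng11 (547 against 227, 1.21) were higher. The inhibitory alpha subunit genes Gnai2 and Gnai3 read 3918 against 3798 (0.045) and 2004 against 2217 (-0.14), and the stimulatory Gnas read 4871 against 4695 (0.053). Of 20 RGS genes, whose products switch off G proteins, Rgs1 (2379 against 5149, -1.11) and Rgs18 (94.3 against 248, -1.26) were lower. Of 25 genes of cyclic AMP enzymes and kinases, the phosphodiesterase genes Pde7b (835 against 99.5, 2.88) and Pde4d (210.0 against 81.5, 1.21) were higher and no adenylyl cyclase gene was 2-fold apart. Of 20 cyclic AMP-responsive genes 2 were higher, Pde4d and Nr4a3 (1.14, with its other probe set at -0.0066), and 2 lower, Dusp1 and Fosb. Among receptors for metabolites and nucleotides, the proton-sensing Gpr65 (1.12) and the ATP-gated channel gene P2rx7 (1.07) were higher, and the niacin receptor gene Hcar2 (203 against 720.3, -1.75) and Gpr84 (-1.37) were lower, together with the oxysterol receptor gene Gpr183 (-1.28, with its other probe set at -0.32) among chemoattractant and lipid receptors.

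Other immune gene groups held few called members. Of 22 interleukin 1 family and inflammasome genes, Il18, its inhibitor gene Il18bp, the noncanonical inflammasome caspase gene Casp4 (1408 against 592, 1.23) and Mefv, which encodes pyrin (1043 against 429, 1.25), were higher, and Il1a and Il1f9 were lower. The canonical sensor gene Nlrp3 read 2014 against 2182 (-0.11) and Casp1 read 2609.6 against 1880.1 (0.47). Of 31 cell death genes 1 was higher, Mlkl, the executor of necroptosis (825 against 309, 1.37), and its upstream kinase gene Ripk3 read 637 against 1181 (-0.88). In arginine and tryptophan metabolism Arg2 (1558 against 368, 2.03) and Kynu, a kynurenine hydrolase gene (594 against 202, 1.48), were higher, while the inducible nitric oxide synthase gene Nos2 (-0.066) and Ido1 (0.14) read below the measured level in both groups.

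Adhesion and matrix genes included both directions. Of 19 integrin genes 3 were higher, Itga4 (3462 against 1183, 1.54), a chain that binds VCAM-1, Itga6 (1251 against 564, 1.13) and Itga3 (170.0 against 70.5, 1.10), and none lower. Of 18 matrix protease genes and their inhibitors, the metalloprotease gene Mmp19 (442 against 1894, -2.06) and Serpinb2, a plasminogen activator inhibitor gene (1412 against 4230.1, -1.57), were lower. The inhibitor gene Timp2 was higher (1221 against 567, 1.08), although 2 of its 5 measured probe sets differed by only 0.12 and 0.35. The guidance gene Sema3c read 755 against 49.9 (3.55), but its other measured probe set lay on the opposite side at -1.34. Among lysosomal proteases and their inhibitors Lgmn, an asparagine endopeptidase gene (3119.9 against 1202, 1.36), was higher, and the stefin genes Stfa2l1 (124 against 719, -2.39) and Stfa3 (159.6 against 489, -1.52) were lower. The oxidized lipoprotein receptor gene Olr1 was lower (537 against 1589, -1.54) and Scarf1 higher (240.4 against 99.5, 1.15) of 15 scavenger receptor genes.

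Housekeeping lists stayed near the PBS level. None of 57 respiratory chain genes, 41 ribosomal protein genes and 31 proteasome genes was 2-fold apart, with medians of -0.030, -0.10 and -0.15. Even so, 28 of the 31 proteasome genes lay below 0, from -0.74 for Psmd7 to 0.15 for Psmd4. Of 13 reference genes Tfrc, the transferrin receptor gene, was lower (633 against 1312, -1.03, with its other probe set at 0.040), and Actb read 12724 against 12694 (0.003). Glycolysis held 1 higher gene, Pfkfb3 (1.40, with its other probe set at 0.0073), and 1 lower gene, Aldoc (-1.12), of 29. Of 44 splicing factor genes 2 were lower, Srsf3 (1177 against 3022, -1.35, with 1 of its 6 measured probe sets at -0.37) and Snrpf (402 against 826, -1.01), and 35 lay below 0.

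Beyond the lists, 208 higher and 144 lower genes stood in none of them. Of the 10 with the largest summed readings on each side, the higher ones included Rnf213, a large ubiquitin ligase (6250.0 against 1937, 1.68), Mndal, a HIN-200 relative (6199 against 1579.8, 1.96), Samd9l (3642 against 1562, 1.21), the inhibitory receptor gene Cd300lf (3446 against 1598, 1.10), Smpdl3a, a phosphodiesterase (8104 against 3716, 1.12), and Gyg, which primes glycogen (6823 against 2976, 1.19). The rest were Themis2 (1.36), Zfas1 (1.61), Sash1 (1.28) and Hmox2 (1.15). The lower ones included Ptgr1, a prostaglandin reductase (1382 against 4379, -1.65), Nt5e, the ectonucleotidase CD73 (655 against 1509.6, -1.19, with 1 of 3 probe sets at -0.14), the importin gene Kpna2 (1265 against 2779.7, -1.13), the exporter gene Abcc1 (976 against 2108, -1.10), the cytokine gene Mif (2179.9 against 5192, -1.25, with its other probe set at -0.23) and Hmgb2, a chromatin protein of dividing cells (773 against 1568, -1.01). The rest were Klk1b11 (-1.53), Sfpq (-1.71, with 6 measured probe sets from -1.82 to 0.19), Fam162a (-1.27) and Atic (-1.10).

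Where a gene had several probe sets, they mostly lay on the same side. They read the same labelled RNA, so they are no replicates. Of the 374 higher genes 151 had at least 2 measured probe sets, and in 51.0% of these every one was at least 2-fold higher, with 140 on the same side of 0 throughout. Of the 292 lower genes 127 had at least 2, and in 46.5% every one was at least 2-fold lower, with 112 on the same side throughout. The remaining 223 higher and 165 lower genes rest on 1 measured probe set. Among the higher genes with the largest weakest probe set were Ms4a6b, Ifi213, Ms4a4c (1470.0 against 78.5, 3.97), Iigp1, Zbp1, Ddx60 (1349 against 153, 3.01) and Enpp4 (507 against 58.7, 2.81). The corresponding lower genes included Car4, Hspa1b, Ccn3, a matricellular protein gene (90.3 against 615, -2.57), Ccna2, Pclaf (282 against 1535, -2.38) and Aspm (41.2 against 301, -2.47). In 3 genes 1 probe set was at least 2-fold higher and another at least 2-fold lower: Abca1, Nek2 and Sema3c. Tmem69 (1069.7 against 103, 3.19) and Mrpl38 (124 against 888, -2.69) each had another probe set near 0, at -0.17 and -0.092. Cabp7 read 15.5 against 1350 (-5.44), with a PTX reading below the measured level, but its other measured probe set differed by 0.25. Cdca3, a mitosis gene, read 195 against 708 (-1.78), but its other measured probe sets lay above 0.

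**Figure D4:**
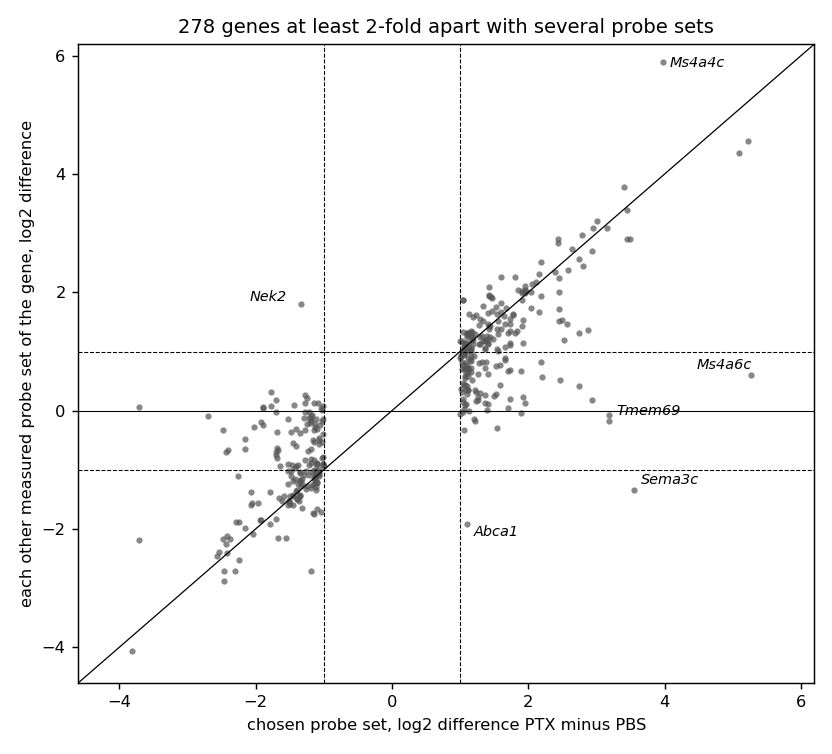
Log2 difference, PTX minus PBS, of the chosen probe set (horizontal) and of each other measured probe set of the same gene (vertical), for the 278 genes at least 2-fold apart that have several, with 413 points. The point of Cabp7 (-5.44 and 0.25) lies outside the axes drawn. Most points lie on the same side of 0 on both axes, and the named genes are among those farthest from the diagonal.

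**Figure D5:**
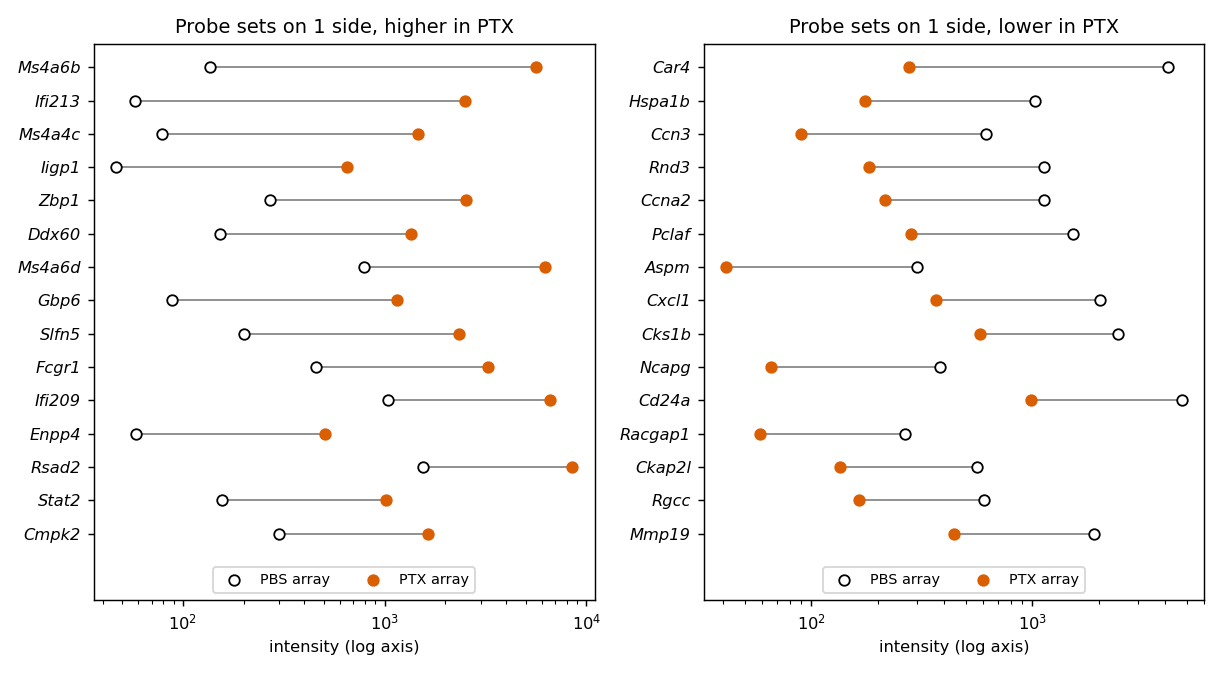
Readings on the PBS array (open circles) and the PTX array (filled circles), on a log axis, for the 15 higher and 15 lower genes with at least 2 measured probe sets on the same side and the largest value of the weakest one. Each line joins the readings of 1 gene, from Ms4a6b and Car4 at the top.

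Several higher genes stood beside each other along the chromosomes. Genes were ordered by start on GRCm38.p6, which gave 12236 measured genes a place, and a neighbour is the next measured gene. Of 373 higher genes with a place, 95 (25.5%) had a higher gene beside them, against 712 (5.82%) of all 12236 placed genes. Of 290 lower genes 36 (12.4%) had a lower one beside them, against 567 (4.63%) of all. The longest run of higher genes was of 6 MS4A genes, Ms4a7, Ms4a4c, Ms4a4b, Ms4a6c, Ms4a6b and Ms4a6d, on chromosome 19. A run of 5 on chromosome 1 held Ifi213, Ifi209, Ifi207, Ifi204 and Mndal. Runs of 3 held, among others, Ifit2, Ifit3 and Ifit1bl1, the guanylate-binding protein genes Gbp7, Gbp3 and Gbp2, the TRIM genes Trim34a, Trim5 and Trim12a, the genes Parp14, Dtx3l and Parp9, and the CD300 receptor genes Cd300ld, Cd300c2 and Cd300lf. The longest run of lower genes, of 4 on chromosome 17, held Hspa1b, Hspa1a, Lsm2 and D17H6S56E-5. Neighbours in such families are often close copies, so their probe sets may share sequence.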

How the data were processed

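Total RNA (3 µg) of each culture was labelled as biotinylated cRNA and hybridised to 1 Affymetrix array, per the labels' protocols. The deposited values are summarized probe set intensities, not logged, of which the lowest is 1. The summarization program, background correction and scaling by the authors are each not given in the sources used here, so the values were used as deposited.

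Differences were log2(intensity + 16), PTX minus PBS. Gene symbols came from the platform annotation, which can be old, and 932 noncontrol probe sets with several symbols, 9160 with none and 64 controls were left out of the gene counts. A gene took its brightest probe set by the mean of its 3 log2 values, and 2-fold was the threshold throughout. Of 1879 symbols in the 82 lists, 1461 were measured, and 15 were found under an older symbol. The genes and lists were chosen with earlier results of these data known.

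Genes named in the text are list members, the 15 largest differences in each direction among genes at the measured level on both arrays, the 15 on each side whose probe sets all lie on 1 side with the largest weakest value, and the 10 brightest outside the lists in each direction. Cabp7 is named in addition for its disagreeing probe sets. The neighbours and promoters came from RefSeq tables of GRCm38.p6. Python 3.11.15 with pandas 2.3.3, numpy 2.4.6 and matplotlib 3.10.9 was used, and the calculations were checked on simulated data. The 13 alternative settings covered the pseudocount, scaling, filter, choice of probe set and fold threshold.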

Additional observations from a re-analysis of the deposited data

Results flagged for a closer look

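Probe sets left out of the gene counts also held some past 2-fold. Of 9160 probe sets with no gene symbol in the annotation used, 3624 were measured, of which 105 (2.9%) passed 2-fold on the higher side with PTX and 40 (1.1%) on the lower side. Of 932 probe sets with several symbols, which often read close copies of a family, 624 were measured, of which 36 (5.77%) passed on the higher side and 12 (1.92%) on the lower side. Beside these shares stand 3.04% higher and 2.37% lower among all measured genes, each read by its brightest probe set. Which genes the left-out probe sets read was not examined here.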

How the results depend on the processing

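Across the other pseudocounts, scalings, filters and choices of probe set, from 314 to 403 genes were at least 2-fold higher and from 202 to 335 lower, against 374 and 292. The main call was shared by 352 higher and all 292 lower genes under quantile normalization, and by 316 and 206 under a pseudocount of 64. No scaling moved the median of all genes beyond -0.030 or 0.029. At 3-fold the counts were 157 higher and 108 lower genes, with 32 lower mitosis and 5 lower replication genes. With a pseudocount of 64, 12 replication genes were lower against 21, and with the measured level required on both arrays 34 mitosis genes were lower against 58, since fewer genes then count. Of 344 genes named or listed as called, 275 kept direction and side of the threshold under every setting that measured them. In 66 the difference fell inside 2-fold under at least 1 setting, and 4 changed sign. With the median over probe sets Cdca3 stood at 0.074 and Tmem69 at -0.073, and with probe sets that can match several transcripts left out Cdca3 stood at 0.074, Nek2 at 1.81 and Plet1 at 0.058. The medians of 10 of the 82 lists changed sign under a scaling.

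With 1 array in each group, the spread between cultures and between arrays is unknown, and probe sets below the median level on all arrays carry no call. No paired analysis was possible because each group has 1 array and no test was made.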
